A study of Mus musculus with 16 samples.

Results

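The genes described here are 10 immediate early genes: the NR4A receptor genes Nr4a1, Nr4a2 and Nr4a3, the AP-1 genes Fos, Fosb, Jun and Junb, and Egr1, Ier2 and Atf3. They were chosen by name, and all 10 are among the 17362 genes with values in pituitary RNA-seq from 16 female mice. All 10 passed a filter on the mean over the 16 mice, as did 14345 genes in total. The mice were 27 weeks old and formed 4 groups of 4. Control mice carried the floxed allele alone (Esr1fl/fl), mutants carried it with a Cre driven by Nkx2-1 (Esr1Nkx2-1Cre), and each genotype received either standard chow (SD) or a high-fat diet (HFD) for 17 weeks. Both genotypes therefore carry floxed Esr1, and deletion is limited to cells with a history of Nkx2-1 expression. Sex, age and duration of HFD come from the paper and not from the labels. Comparing genotypes on each diet asks how loss of the receptor in those cells bears on the pituitary, and comparing diets asks the same of HFD.

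Immediate early genes are transcribed within minutes of a stimulus, from factors already present in the cell, and their messenger RNAs are short-lived. Most encode transcription factors: NR4A proteins are orphan nuclear receptors, FOS and JUN proteins pair to form AP-1, and EGR1 is a zinc finger factor. In the pituitary, corticotropin-releasing hormone raises Nr4a1 in corticotrophs, where NR4A receptors act on Pomc, and gonadotropin-releasing hormone raises Egr1 in gonadotrophs, where EGR1 acts on Lhb.

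Expression is given as the signal the authors normalized, 1 value per gene and mouse in arbitrary units, and the sum per mouse ran from 908897 to 1335782 with a median of 966116. Total reads per library are not given in the sources used here. In 1426 genes with 1 annotated transcript, low values were multiples of a step, and at least 82.2% of those values in each library lay within 0.1 of a whole multiple. By that step 1 read was worth 0.0445 to 0.0682 units per kilobase of transcript. Jun, which has 1 annotated transcript, rested on an estimated 446 to 2143 reads per mouse, a counting error of 2.16% to 4.73%. For Ier2 the estimate was 312 to 1415 reads, a counting error of 2.66% to 5.66%. Fold changes are log2 differences between group means of log2(value + 0.5), given with their standard error (SE), and adjusted p-values are from limma over all 14345 genes, with a threshold of 0.05.

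Esr1, the gene for oestrogen receptor alpha (ENSMUSG00000019768, chr10:4611593-5005614 in GRCm38), was examined first as the deleted gene. Values are listed by animal number within each group. They were 40.5, 46.6, 39.4 and 29.0 in control SD mice, 10.02, 22.2, 20.5 and 21.8 in mutant SD mice, 23.6, 43.4, 42.7 and 39.6 in control HFD mice, and 33.4, 27.9, 33.0 and 21.5 in mutant HFD mice. On SD every mutant lay below every control, and on HFD the groups overlapped through control P385, at 23.6. The fold change was -1.09 ± 0.25 on SD (adjusted p 0.0409, lower in 4 of 4 mutants than in all 4 controls) and -0.34 ± 0.25 on HFD (adjusted p 0.696; -0.54 without P385 and -0.21 without P388), and their difference was 0.75 ± 0.36 (adjusted p 0.924). Over both diets it was -0.71 ± 0.18 (adjusted p 0.0280), called in 10 of 16 fits with a single mouse left out (adjusted p of at most 0.0684). Esr1 transcript was present in every mutant. Fewer cells of a type and less RNA per cell cannot be told apart in bulk RNA, here or below. The call on SD was lost with P357 left out (-0.82, adjusted p 0.0654), with each of the other SD mice except P356 left out (adjusted p 0.0614 to 0.120), and with P339, P341 or P387 left out (adjusted p 0.0536 to 0.0572). It was also lost with only the compared mice (-1.09, adjusted p 0.0636) and with the animal-number range as a covariate (-1.13, adjusted p 0.0525). That covariate split the mice at animal number 370, and genotype was partly confounded with it. On SD, controls P356, P358 and P359 and mutant P357 lay below the split, and control P383 and mutants P381, P382 and P384 above it. On HFD, mutants P339 and P341 lay below the split and all other mice above it.

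Hormone genes of the pituitary were abundant: Prl, the prolactin gene, was between 262175 and 496854, and Gh, the growth hormone gene, between 30462 and 95122. Libraries P357 (mutant SD) and P392 (control HFD) stood apart from the other 14. The summed level of the 3 melanotroph markers Pcsk2, Pax7 and Oacyl was 12.7 in P357 and 40.6 in P392, against 99.4 to 255.5 in the others. Pomc, the precursor gene of corticotrophs and melanotrophs, was 1654 and 3443, against 11234 to 42042. Rax, a posterior lobe marker, was 0 in both and Nkx2-1 was 0.414 and 0, while the other 14 mice had at least 0.834 of Rax and 0.897 of Nkx2-1. The 4 posterior lobe markers together summed to 14.6 and 15.5, within the 12.9 to 24.4 of the other 14. Immune cell markers summed to 78.4 and 118.9, also within the range of the others (36.7 to 175.6). Mural and smooth muscle markers summed to 71.6 in P357, within the 27.8 to 126 of the others, and to 137 in P392, above it. Endothelial markers summed to 217 and 203 in these libraries, against 101 to 183.5 elsewhere. Calls and medians are therefore also given without both where these libraries decide them, an alternative chosen after seeing the data. A further mouse, P384 (mutant SD), had the highest value of 9 of the 10 immediate early genes, and its immune cell marker sum of 175.6 was the highest of all mice.

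The 10 genes differed far more between mice of the same group than most genes did. The standard deviation of log2 values within groups had a median of 0.907 over the 10 genes, against 0.260 over all tested genes, and all 10 exceeded that 0.260. Fos had the widest spread, 1.72, larger than that of 99.8% of tested genes. Egr1 followed with 98.9% and Fosb with 98.5%, then Nr4a1 with 97.5%, Nr4a2 with 97.4% and Atf3 with 97.1%. For Junb the share was 94.9%, for Nr4a3 93.5% and for Ier2 90.4%. Jun had the narrowest spread of the 10 and still exceeded 79.9% of tested genes. Differences between the 4 groups held a median of 11.02% of the variance of the 10 genes, against 24.8% for all tested genes. Only Jun, at 57.7%, and Atf3, at 45.8%, lay above 24.8%.

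**Figure D1:**
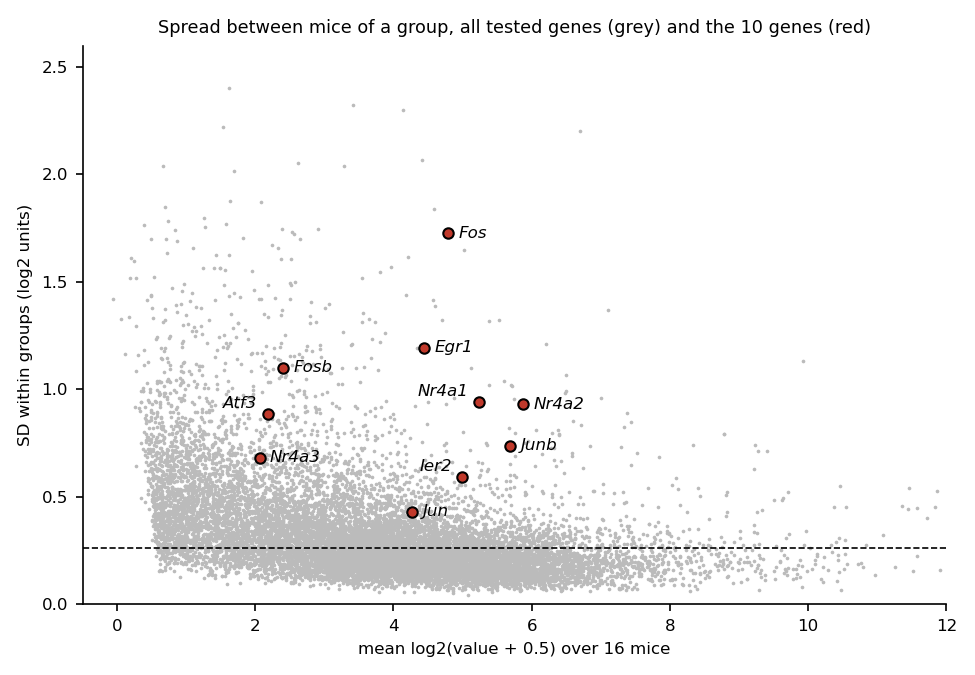
Each point is a gene, with its mean log2(value + 0.5) over 16 mice on the x axis and its standard deviation within groups in log2 units on the y axis, drawn up to a mean of 12. The dashed line is the median of all tested genes, 0.260, and the 10 immediate early genes in red all lie above it.

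Of the 10 genes, 1 was called between genotypes on SD, Jun, and it was higher in mutants. Over all tested genes 264 were called on SD (1.84%), 196 of them higher in mutants (1.37%), and 2 of the 10 and 2855 of all (19.9%) had an unadjusted p under 0.05. On HFD limma called 0 of the 10 and 0 of all tested genes (0%), with 0 of the 10 and 1461 of all (10.2%) at an unadjusted p under 0.05. For diet, limma called 0 of the 10 and 0 of all (0%) in controls, where 1 of the 10 and 592 of all had an unadjusted p under 0.05. In mutants the diet counts called were also 0 and 0 (0%), with 0 and 717 at an unadjusted p under 0.05. The interaction of genotype and diet gave 0 and 0 calls (0%), with 1 and 602 at an unadjusted p under 0.05. Over both diets, limma called 0 of the 10 between genotypes, and 938 of all (6.54%), 642 of them higher in mutants (4.48%), with 2 of the 10 and 3261 of all (22.7%) at an unadjusted p under 0.05. Between diets over both genotypes it called 0 of the 10 and 1 of all (0.00697%), with 0 of the 10 and 733 of all at an unadjusted p under 0.05. Groups did not overlap for 1 of the 10 between genotypes on SD, for 0 on HFD, for 1 between diets in controls and for 0 in mutants. The matching shares of all tested genes were 10.6%, 5.30%, 2.61% and 3.31%. The SD comparison of genotypes and the diet comparison in controls share the 4 control SD mice, and the 1 gene in both was Jun.

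Without P357 and P392, limma called 961 genes between genotypes on SD, 1064 on HFD and 2668 over both diets. Of the 10 immediate early genes, 2 were then called on SD (Jun and Atf3), 0 on HFD and 3 over both diets (Jun, Atf3 and Fosb). Leaving out P392 alone gave 653 called genes on HFD. With any single mouse left out, genes called on SD ran from 33 (without P382) to 826 (without P356).

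**Figure D2:**
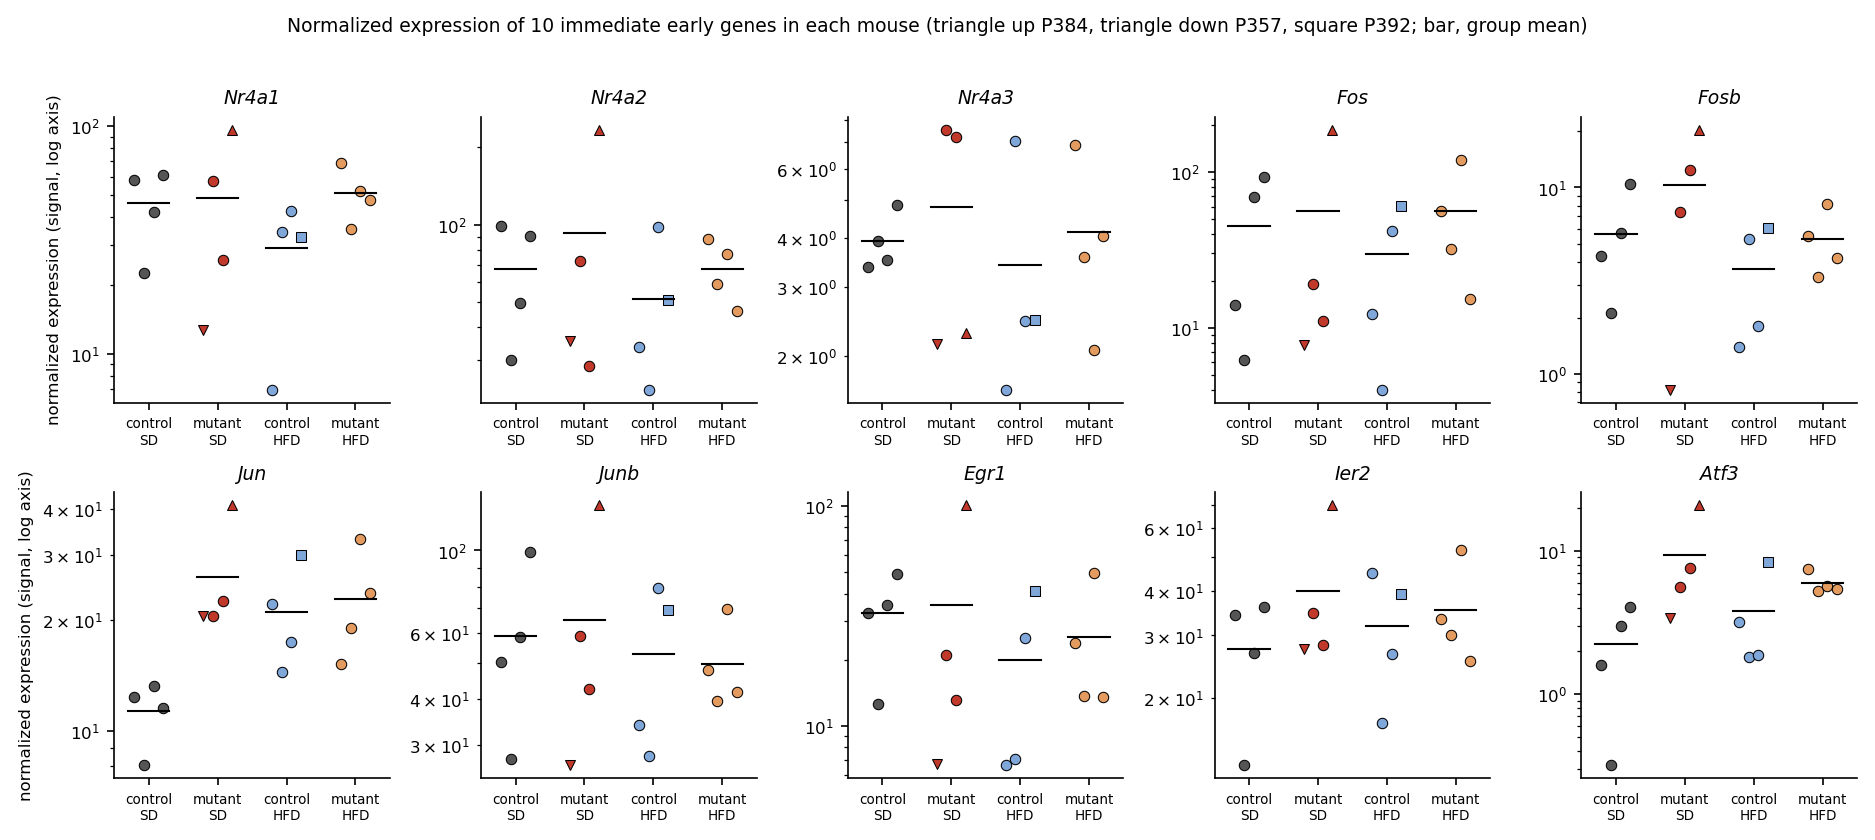
Normalized expression of each of the 10 genes on a log axis, 1 point per mouse and 4 mice per group, with group means as bars and P384, P357 and P392 as separate symbols. Jun is the gene whose 4 control SD mice lie below the other 12 mice.

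Nr4a1 (Nur77, ENSMUSG00000023034, chr15:101254269-101274795), Nr4a2 (Nurr1, ENSMUSG00000026826, chr2:57106830-57124003) and Nr4a3 (Nor-1, ENSMUSG00000028341, chr4:48045153-48086447) encode the receptors of the family. A cAMP response element (CRE) is bound by CREB, the factor through which cAMP signals reach many immediate early genes, and its core is TGACG. Windows of up to 250 bases before the start were in the RefSeq table (GRCm38.p6) for 8 of the 10 genes, all but Ier2 and Egr1. TGACG on either strand was found in 7 of those 8, all but Jun, and in 17.8% of the 32851 promoters in the table over the same length. The full CRE TGACGTCA, which contains TGACG, was in 0 of 8 and in 1.55% of promoters. AAAGGTCA, the site that a single NR4A receptor binds, was in 0 of 8 and in 1.34%. A match is a description of the letters. The windows of Nr4a1 (chr15:101266596-101266845, plus strand, 4 matches) and Nr4a3 (chr4:48045055-48045152, plus strand, 3 matches) are shown as examples of the several copies in each of the NR4A genes (Nr4a2 also holds 4), and capitals mark TGACG or its reverse complement CGTCA. For Nr4a1 the window lies inside the annotated gene, before the start that RefSeq gives, and for Nr4a3 it is shown up to the first annotated exon, 98 bases that hold 3 of the 4 matches in its window.
Nr4a1: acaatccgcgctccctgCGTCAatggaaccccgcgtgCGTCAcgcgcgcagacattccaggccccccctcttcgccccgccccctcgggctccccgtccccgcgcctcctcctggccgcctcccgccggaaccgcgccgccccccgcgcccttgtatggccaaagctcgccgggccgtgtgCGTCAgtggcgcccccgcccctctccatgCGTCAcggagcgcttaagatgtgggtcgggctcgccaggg
Nr4a3: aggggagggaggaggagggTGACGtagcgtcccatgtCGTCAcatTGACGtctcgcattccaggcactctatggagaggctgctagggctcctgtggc

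Nr4a1 was 58.2, 22.6, 42.1 and 61.2 in control SD mice, 12.7, 57.6, 25.8 and 96.6 in mutant SD mice, 6.95, 34.4, 42.2 and 32.7 in control HFD mice, and 68.8, 35.5, 52.1 and 47.4 in mutant HFD mice. The SD groups overlapped throughout, with P384 highest and P357 lowest of the SD mice, and on HFD 3 of 4 mutants lay above all controls. Group means were 46.0 ± 17.7 (standard deviation, n = 4) in controls and 48.2 ± 37.4 in mutants on SD, and 29.1 ± 15.3 and 51.0 ± 13.8 on HFD. The fold change was -0.21 ± 0.58 (SE) on SD (adjusted p 0.868) and 1.02 ± 0.58 on HFD (adjusted p 0.588), and the interaction was 1.24 ± 0.83 (adjusted p 0.924). On SD the sign turned without P357 and P392 (0.29, adjusted p over the alternatives 0.559 to 0.880). Leaving out P385, the control HFD mouse at 6.95, brought the HFD value to 0.45.

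Nr4a2 was 99.0, 30.0, 49.7 and 90.4 in control SD mice, 35.3, 72.5, 28.4 and 234 in mutant SD mice, 33.6, 22.9, 98.4 and 50.9 in control HFD mice, and 88.5, 58.7, 77.1 and 46.2 in mutant HFD mice. Apart from P384 at 234, mice of every group lay between 22.9 and 99.0, and the groups overlapped in each comparison. Nr4a3 was 3.36, 3.92, 3.52 and 4.86 in control SD mice, 2.15, 7.55, 7.24 and 2.28 in mutant SD mice, 1.64, 7.08, 2.45 and 2.48 in control HFD mice, and 6.90, 3.56, 2.07 and 4.04 in mutant HFD mice. P381, P382, P390 and P339 had the highest Nr4a3, 6.90 to 7.55, while P384, highest for Nr4a1 and Nr4a2, had 2.28. Fold changes between genotypes were 0.09 ± 0.58 on SD and 0.56 ± 0.58 on HFD for Nr4a2. For Nr4a3 they were 0.08 ± 0.43 and 0.33 ± 0.43. All 4 had adjusted p-values between 0.807 and 0.947. Without P384 the SD value of Nr4a2 was -0.53.

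Fos (ENSMUSG00000021250, chr12:85473890-85477273) and Fosb (ENSMUSG00000003545, chr7:19302696-19310051) encode AP-1 subunits that bind DNA when paired with a JUN protein. Jun (ENSMUSG00000052684, chr4:95049034-95052222) and Junb (ENSMUSG00000052837, chr8:84974484-84978718) encode their partners, which also pair among themselves. Junb shares 176 bp with Prdx2, which overlaps it on the opposite strand and has a value of its own, and Jun shares 232 bp with Junos, which has none. Jund, described below, shares 543 bp with Gm11175, also on the opposite strand and without a value. Atf3 overlaps Gm24748, on the opposite strand and without a value. Dusp1, also described below, overlaps 4 genes, on the same and the opposite strand, of which 1 has a value. Whether reads were assigned by strand is not given in the sources used here. The windows before Fos (chr12:85473640-85473889, plus strand), Junb (chr8:84978749-84978998, minus strand) and Jun (chr4:95052223-95052472, minus strand) are shown to set the gene called on SD beside its partners. Capitals mark TGACG in Fos (2 matches) and Junb (1 match), and TGACNTCA in Jun (1 match). The last motif includes the full CRE, was searched after the Jun window had been seen, and was in 1 of the 8 windows and in 7.49% of promoters. TGACTCA, bound by AP-1, was in 0 of 8 windows and in 4.46% of promoters. The CArG box, bound by serum response factor, was in 0 of 8 windows and in 1.47% of promoters. Sites more than 250 bases before the start, and any sites of Egr1 and Ier2, were not searched. GCGNGGGCG, bound by EGR proteins, was in 3 of 8 (Fosb, Nr4a1 and Nr4a2) and in 4.70%.
Fos: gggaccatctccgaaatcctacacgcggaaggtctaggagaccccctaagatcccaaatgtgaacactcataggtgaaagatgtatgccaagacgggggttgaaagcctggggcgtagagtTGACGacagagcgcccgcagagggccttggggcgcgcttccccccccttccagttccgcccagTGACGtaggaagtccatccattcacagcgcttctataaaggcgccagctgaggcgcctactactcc
Junb: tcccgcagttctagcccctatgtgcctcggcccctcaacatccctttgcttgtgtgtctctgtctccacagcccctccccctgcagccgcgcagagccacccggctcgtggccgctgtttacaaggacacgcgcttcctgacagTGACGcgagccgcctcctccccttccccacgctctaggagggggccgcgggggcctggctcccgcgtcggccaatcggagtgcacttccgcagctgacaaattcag
Jun: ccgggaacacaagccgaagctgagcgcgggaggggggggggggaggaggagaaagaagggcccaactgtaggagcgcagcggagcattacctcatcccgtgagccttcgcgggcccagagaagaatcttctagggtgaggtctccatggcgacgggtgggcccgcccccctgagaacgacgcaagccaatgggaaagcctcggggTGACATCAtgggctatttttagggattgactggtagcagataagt

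Fos was 13.9, 6.18, 68.7 and 92.2 in control SD mice, 7.69, 19.1, 10.97 and 187 in mutant SD mice, 12.3, 3.99, 41.9 and 60.5 in control HFD mice, and 56.0, 32.2, 119.7 and 15.4 in mutant HFD mice. High and low mice occurred in every group, and the highest, P384, had 46.8 times the lowest, P390. The fold change was -0.21 ± 1.07 on SD (adjusted p 0.933), 0.31 without P357 and P392 (adjusted p 0.893, range over the alternatives 0.667 to 0.942) and -1.19 without P384. On HFD it was 1.14 ± 1.07 (adjusted p 0.777).

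Fosb was 4.30, 2.13, 5.67 and 10.4 in control SD mice, 0.818, 7.34, 12.4 and 20.5 in mutant SD mice, 1.40, 5.31, 1.80 and 6.08 in control HFD mice, and 5.46, 3.31, 8.10 and 4.19 in mutant HFD mice. On SD the mutants held both the lowest mouse, P357, and the highest, P384, and the groups overlapped on both diets. Its fold changes were 0.43 ± 0.69 on SD and 0.61 ± 0.69 on HFD, and over both diets 0.52 ± 0.49 (adjusted p 0.569). Without P357 and P392 the value over both diets was 1.08 ± 0.35 (adjusted p 0.0466, range over the alternatives 0.0466 to 0.600). Junb ran from 26.5 in P357 to 132 in P384 and overlapped in each comparison. Its fold changes were 0.03 ± 0.46 on SD and 0.02 ± 0.46 on HFD, and the sign on HFD turned with median scaling.

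Jun was 12.4, 8.06, 13.2 and 11.5 in control SD mice, 20.6, 20.5, 22.6 and 41.1 in mutant SD mice, 22.2, 14.4, 17.4 and 30.2 in control HFD mice, and 15.2, 19.0, 33.2 and 23.7 in mutant HFD mice. All 4 control SD mice lay below all other 12 mice, whose 3 groups overlapped with one another. Group means were 11.3 ± 2.27 (standard deviation, n = 4) in control SD mice, 26.2 ± 9.998 in mutant SD mice, 21.0 ± 6.86 in control HFD mice and 22.8 ± 7.77 in mutant HFD mice. Jun was higher in mutants on SD by 1.14 ± 0.28 (SE, log2; adjusted p 0.0466, 4 of 4 mutants above all controls, exact two-sided permutation p 0.0286, the smallest that 4 against 4 mice allow). On HFD the fold change was 0.11 ± 0.28 (adjusted p 0.942). The difference between those values was -1.03 ± 0.39 and did not pass the threshold (unadjusted p 0.0180, adjusted p 0.924). In controls, HFD mice exceeded SD mice by 0.84 ± 0.28 (unadjusted p 0.00785, adjusted p 0.998, exact two-sided permutation p 0.0286). Both permutation p-values restate that the groups did not overlap, as held for 10.6% and 2.61% of all tested genes in these comparisons. In mutants the diet difference was -0.19 ± 0.28 (adjusted p 0.893).

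The call for Jun lay close to the threshold. Among the 9 alternatives, 5 kept it, and the adjusted p ran from 0.0196 without P357 and P392 to 0.0798 with the animal-number range as a covariate. It was 0.0520 with no filter, 0.0507 with a mean of at least 5 and 0.0556 without trend. With single mice left out, 4 of 16 fits called Jun, those without P356, P387, P390 or P392. Each of the other 12 mice left out ended the call, at adjusted p-values of up to 0.138, and the fold change ran from 0.90 (without P384) to 1.23. Over both diets Jun was 0.62 ± 0.19 (adjusted p 0.0677), and 0.76 without P357 and P392 (adjusted p 0.0167, range over the alternatives 0.0167 to 0.0789).

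Egr1 encodes a zinc finger factor (ENSMUSG00000038418, chr18:34859823-34864984). It was 32.6, 12.6, 35.5 and 49.1 in control SD mice, 6.74, 21.1, 13.1 and 101 in mutant SD mice, 6.61, 7.05, 25.2 and 41.1 in control HFD mice, and 23.9, 13.7, 49.8 and 13.6 in mutant HFD mice. On SD 3 of 4 mutants lay below 3 of 4 controls while P384 lay above them all, and the groups overlapped in every comparison. The fold change was -0.46 ± 0.74 on SD (adjusted p 0.762) and 0.52 ± 0.74 on HFD (adjusted p 0.866). On SD it was -1.21 without P384 and 0.063 without P357 and P392 (adjusted p 0.966, range over the alternatives 0.421 to 0.966).

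Ier2 encodes a small nuclear protein (ENSMUSG00000053560, chr8:84661331-84662852). It ran from 12.9 in P358 to 69.8 in P384, overlapped in each comparison, and had fold changes of 0.53 ± 0.37 on SD (adjusted p 0.439) and 0.18 ± 0.37 on HFD (adjusted p 0.921).

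Atf3 encodes a stress-induced bZIP factor of the ATF family that can pair with JUN (ENSMUSG00000026628, chr1:191170296-191218039). It was 1.60, 0.320, 2.99 and 4.08 in control SD mice, 3.38, 5.58, 7.57 and 20.8 in mutant SD mice, 3.17, 1.82, 1.89 and 8.28 in control HFD mice, and 7.48, 5.25, 5.66 and 5.39 in mutant HFD mice. On SD the groups overlapped in 1 pair of mice, mutant P357 at 3.38 and control P383 at 4.08, and on HFD only through control P392. The fold change was 1.80 ± 0.56 on SD (unadjusted p 0.00525, adjusted p 0.0995, exact two-sided permutation p 0.0571) and 0.81 ± 0.56 on HFD (adjusted p 0.669). Over both diets it was 1.304 ± 0.394 (adjusted p 0.0593). Without P357 and P392 it was 2.15 ± 0.51 on SD (adjusted p 0.0247, range over the alternatives 0.0247 to 0.175), 1.23 ± 0.51 on HFD (adjusted p 0.179, range 0.179 to 0.704) and 1.69 ± 0.36 over both diets (adjusted p 0.00593, range 0.00593 to 0.0677). With single mice left out, Atf3 was called over both diets in 2 of 16 fits, without P357 (1.48, adjusted p 0.0330) and without P392 (1.51, adjusted p 0.0138). Each of the other 14 fits did not call it (fold change down to 1.06, adjusted p up to 0.129).

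**Figure D3:**
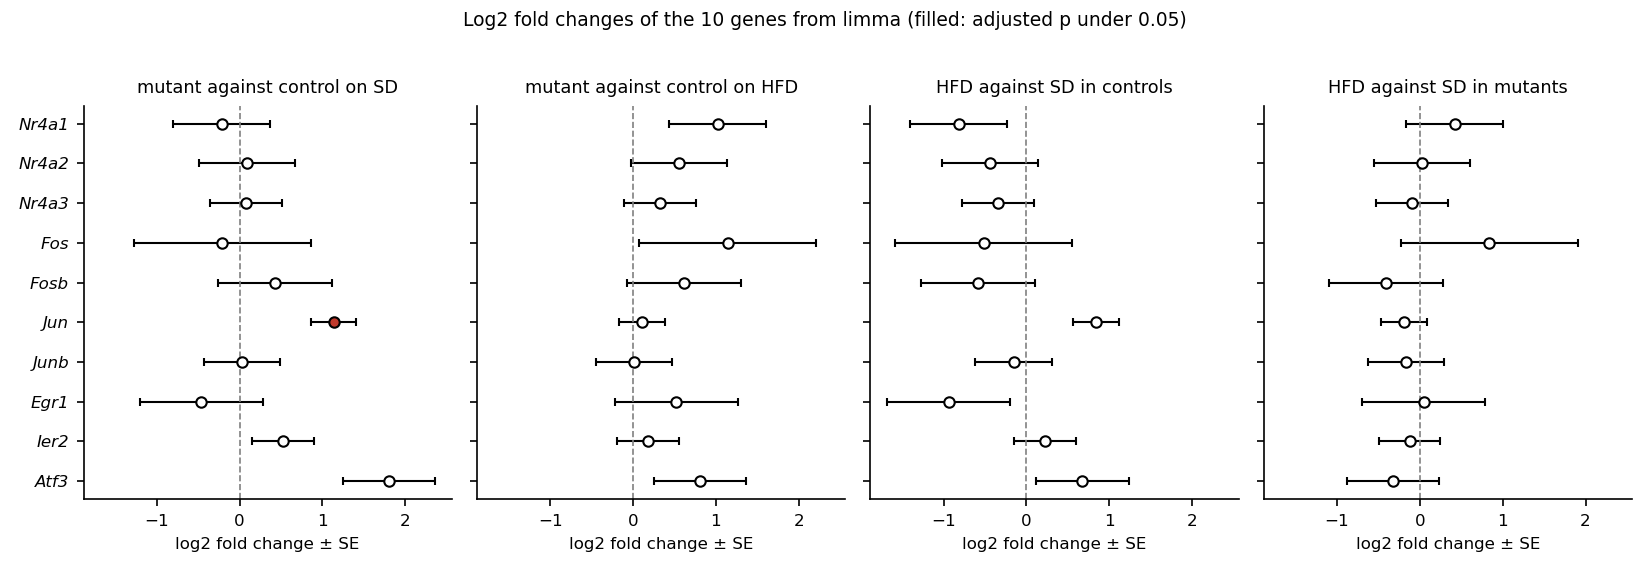
Log2 fold changes of the 10 genes with standard errors in the 4 comparisons, from 16 mice, with a filled point where the adjusted p was under 0.05. Jun on SD, at 1.14, is the filled point. All 10 values for genotype on HFD lie above 0, as do 53.9% of all tested genes. On HFD Junb turns below 0 with median scaling, and Jun, Junb and Ier2 with single mice left out.

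As a list, the 10 genes had a median fold change between genotypes of 0.08 on SD, with 7 above 0, and of 0.54 on HFD, with 10 above 0, although Junb turned to -0.015 on HFD with median scaling. Leaving out single mice also turned HFD values of Jun (-0.089 without P387), Ier2 (-0.083 without P390) and Junb (-0.24 without P390). With P357 and P392 left out, the median was 0.37 on SD, with 10 above 0, and 0.77 on HFD. With single mice left out, the SD median ran from -0.24 (without P384) to 0.37 (without P357). In those fits the HFD values ran from 0.43 to 1.69 for Fos, 0.13 to 1.00 for Egr1, 0.25 to 0.94 for Nr4a2, 0.068 to 0.70 for Nr4a3, 0.31 to 0.91 for Fosb and 0.59 to 1.23 for Atf3, and the SD value of Ier2 from 0.21 to 0.69. With the animal-number range as a covariate, Nr4a2, Nr4a3, Fosb and Junb turned below 0 on SD, as did the median (-0.25). The medians of all tested genes were -0.0071 on SD and 0.018 on HFD, with 49.0% and 53.9% of them above 0. For diet the median of the 10 was -0.39 in controls and -0.11 in mutants, against 0.0011 and 0.023 for all tested genes. In mutants it was -0.32 without P357, with 9 of 10 below 0, and 0.22 without P384, and in controls it ran from -0.62 to -0.015 with single mice left out. In controls Jun was among 3 of the 10 that were higher on HFD, and the lowest value was that of Egr1, -0.94 ± 0.74 (adjusted p 0.998). In mutants the extremes were Fos at 0.84 ± 1.07 (adjusted p 0.879) and Fosb at -0.40 ± 0.69 (adjusted p 0.908). Fos was 0.32 without P357 and 1.82 without P384, and Fosb -1.22 and 0.11. Egr1 in controls was -1.41 without P392 and -0.56 without P385.

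The genes varied together over mice. A z-score of log2(value + 0.5) over the 16 mice was averaged over the 10 genes, and this mean was highest in P384 (1.65), followed by P387 (0.67) and P383 (0.59), and lowest in P358 (-1.24), P357 (-0.96), P385 (-0.83) and P390 (-0.75). The 3 highest came from 3 different groups, and the 4 lowest from control SD, mutant SD and control HFD mice. Over the 16 mice, whose points share library and scaling within each mouse, all 36 pairs that leave out Nr4a3 had positive correlations, with a median Pearson r of 0.65 (0.091 to 0.92). Without P384 and P390, r for Nr4a2 and Jun fell from 0.31 to -0.079. Without P358 and P384, r for Jun and Egr1 fell from 0.29 to -0.067. As deviations from the group means, r was 0.49 for Nr4a2 and Jun and 0.72 for Jun and Egr1. Of the 9 pairs with Nr4a3, 2 were positive, and their median was -0.17. Junb and Egr1 were the closest pair (r = 0.92, Spearman's rho = 0.91, n = 16, r = 0.88 without P383 and P384). Fos and Egr1 had r = 0.88 and rho = 0.91, and r = 0.82 without P384 and P390. Nr4a1 and Nr4a2 had r = 0.74 and rho = 0.82, and r = 0.87 without P357 and P385. Nr4a1 and Nr4a3 had r = 0.35 and rho = 0.20, and r = -0.15 without P357 and P385. Jun and Junb had r = 0.40 and rho = 0.23, a relation that rested on P358 and P384, without which r was -0.061. As deviations from the group means their r was 0.65, and 0.47 without P384 and P387. In Jun and Atf3 r was 0.81 and rho 0.76, r was 0.58 without P358 and P384, and deviations from the group means had r = 0.70. These correlations, out of 45 member pairs computed, are descriptions.

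**Figure D4:**
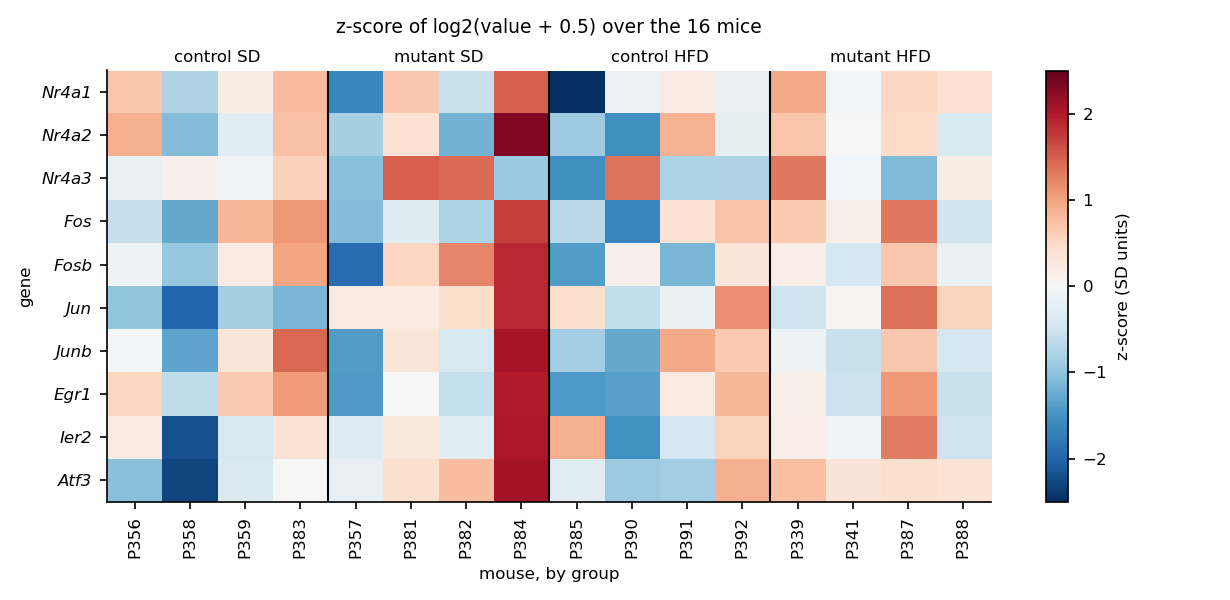
Colour gives the z-score of log2(value + 0.5) of each gene (y axis) in each of the 16 mice (x axis), by group. P384 is the reddest column for every gene but Nr4a3, and the 4 control SD mice are low for Jun.

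Among tested genes other than the 10, those most like Fos by Pearson r over the 16 mice were Dusp1 (0.97), Oxld1 (0.83), Ptp4a1 (0.82), Hs6st2 (0.82) and Map3k1 (0.81). Dusp1 encodes a phosphatase that switches off MAP kinases. It was 32.7, 15.1, 76.3 and 105 in control SD mice, 13.5, 47.4, 33.7 and 195 in mutant SD mice, 17.8, 11.5, 91.8 and 88.1 in control HFD mice, and 82.1, 46.9, 101 and 30.2 in mutant HFD mice. Its order of mice was close to that of Fos (rho = 0.94, r = 0.94 without P384 and P390, n = 16). Those most like Nr4a1, again other than the 10, were Trio (0.83), E2f2 (0.76), Atf1 (0.76), Rbfox3 (0.76) and Gm14292 (0.76). For the mean z-score they were Dusp1 (0.91), Maff (0.85), Midn (0.85), Hs6st2 (0.83) and Klf4 (0.82).

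**Figure D5:**
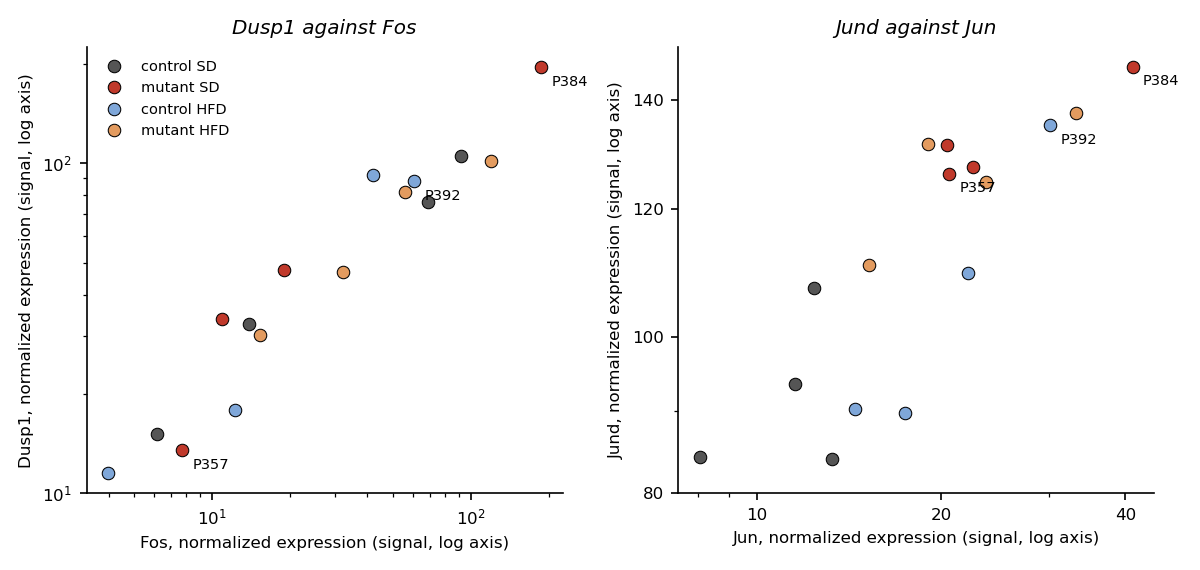
Dusp1 against Fos and Jund against Jun, normalized expression on log axes, 1 point per mouse for 16 mice coloured by group. Dusp1 follows Fos across all groups (r = 0.97), and control SD mice lie low for both Jun and Jund (r = 0.85).

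Of 12 other AP-1 and bZIP factors, 11 were tested (Batf3 was below the filter), and 2 were called on SD, Jund and Batf, both higher in mutants, beside 1.84% of all tested genes. Their median was 0.23 on SD and 0.29 on HFD, where limma called 0 and 3 had an unadjusted p under 0.05, beside 10.2% of all tested genes. Jund encodes the JUN protein that is present in unstimulated cells (ENSMUSG00000071076, chr8:70698949-70700616). It was 107, 84.3, 84.0 and 93.5 in control SD mice, 126, 131, 127 and 147 in mutant SD mice, 109, 90.2, 89.7 and 135 in control HFD mice, and 111, 132, 137 and 125 in mutant HFD mice. The SD groups did not overlap, and on HFD they overlapped only through P392. Fold changes of Jund were 0.53 ± 0.13 on SD (adjusted p 0.0456), 0.26 ± 0.13 on HFD (adjusted p 0.499) and 0.40 ± 0.09 over both diets (adjusted p 0.0181). Over the mice it followed Jun (r = 0.85, rho = 0.83, n = 16, r = 0.78 without P358 and P384). Batf encodes a partner of JUN proteins best known in lymphocytes (ENSMUSG00000034266, chr12:85686669-85709087). It was 2.46, 0.375, 0.0923 and 0.379 in control SD mice, 4.19, 2.94, 5.07 and 4.72 in mutant SD mice, 0.970, 0.467, 0.751 and 3.34 in control HFD mice, and 2.09, 4.53, 2.30 and 5.27 in mutant HFD mice. As for Jund, P392 was the HFD control within the range of the mutants, and for Atf3 it lay above them. Fold changes of Batf were 2.11 ± 0.48 on SD (adjusted p 0.0388), 1.24 ± 0.48 on HFD (adjusted p 0.392) and 1.67 ± 0.34 over both diets (adjusted p 0.0110). Batf in control SD mice P358, P359 and P383 lay below the 0.5 added before the logarithm, so the size of its SD fold change depends on that constant. Over both diets Jund and Batf were called with any of the 16 mice left out. On SD the call ended with 12 of the 16 single mice left out for Jund and with 9 for Batf. It also ended with the animal-number range as a covariate (Jund 0.49, adjusted p 0.0714, and Batf 2.14, adjusted p 0.0541). For Jund, still at 0.53, it ended with a mean of at least 5 (adjusted p 0.0511) and without trend (0.0613). On HFD limma called 3 of the 11 without P357 and P392 (Jund, Batf and Jdp2), beside 7.42% of all tested genes in that fit. The median of the list was then 0.48 (Jund 0.39, adjusted p 0.0466, range over the alternatives 0.0466 to 0.583, and Batf 1.65, adjusted p 0.0473, range 0.0473 to 0.521).

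Marker genes of vessels, mural cells and immune cells were examined in the same mice. The 6 endothelial markers, all tested, summed to 108 to 132 in control SD mice, 166 to 217 in mutant SD mice, 101, 113, 118 and 203 (P392) in control HFD mice, and 163 to 178 in mutant HFD mice. The 4 mural and smooth muscle markers summed to 27.8 to 44.5 in control SD mice, 71.6 to 89.1 in mutant SD mice, 30.0, 41.4, 41.1 and 137 (P392) in control HFD mice, and 77.6 to 126 in mutant HFD mice. The 6 immune cell markers summed to 38.4 to 53.2 in control SD mice, 70.1 to 175.6 in mutant SD mice, 36.7, 46.9, 69.6 and 119 (P392) in control HFD mice, and 67.2 to 157 in mutant HFD mice. In each list P392 lay above the lowest mutant HFD mouse, as control P391 did in the immune list (69.6 against 67.2 in P388). None of these markers was at 0 in any mouse. The most abundant were Plvap (56.7 to 143), Rgs5 (18.4 to 121) and C1qa (9.92 to 58.5). All 16 markers of these lists had fold changes above 0 on SD, with medians of 0.62, 0.69 and 0.88, and limma called 0 on SD, where 6, 2 and 4 had an unadjusted p under 0.05 (19.9% of all tested genes). The immune median on SD was 0.49 without P384. On HFD the medians were 0.47, 0.64 and 0.56, with 0 called and 3, 2 and 1 at an unadjusted p under 0.05 (10.2% of all). Single mice left out moved those medians between 0.30 and 0.76, 0.44 and 0.89, and 0.31 and 0.80, each highest without P392. Over both diets 3 of 6 endothelial (Pecam1, Cdh5 and Plvap), 2 of 4 mural (Rgs5 and Myh11) and 2 of 6 immune markers (C1qa and Cx3cr1) were called, all higher in mutants, beside 6.54% of all tested genes. With single mice left out, Pecam1, Cdh5 and Rgs5 were called in 16 of 16 fits, Plvap in 8, Myh11 in 3, C1qa in 2 and Cx3cr1 in 4. C1qa also lost the call with no filter, without trend and with the covariate (adjusted p 0.0511 to 0.0557), and Cx3cr1 with no filter (0.0531). With P357 and P392 left out, limma called 5 endothelial, 2 mural and 0 immune markers on SD, beside 6.70% of all tested genes. It then called 6, 2 and 1 of these markers on HFD (7.42% of all) and 6, 3 and 4 over both diets (18.6% of all). Their part in the values of Jun, Jund, Batf and Atf3 was not tested.

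Genes of the wider immediate early response were examined in lists, with medians beside those of all tested genes (-0.0071 on SD and 0.018 on HFD). For their counts at an unadjusted p under 0.05, the matching share of all tested genes was 19.9% on SD, 10.2% on HFD and 22.7% over both diets. Of the 7 EGR and KLF zinc finger factors, 6 were tested (not Egr2), and limma called 0 on either diet, with 0 at an unadjusted p under 0.05 on both. Their medians were -0.18 on SD (Klf2 0.50, Egr3 -1.16) and 0.38 on HFD (Egr3 0.77, Klf10 -0.21). With a mean of at least 5, which left 3 of them, the HFD median was -0.0016. Single mice left out moved the medians between -0.29 and -0.10 on SD and between 0.24 and 0.63 on HFD. Egr3, a relative of Egr1, was 2.61, 2.04, 9.51 and 8.79 in control SD mice, 0.102, 3.03, 2.58 and 3.97 in mutant SD mice, 0.591, 0.595, 0.494 and 0.283 in control HFD mice, and 1.40, 0.804, 1.08 and 1.53 in mutant HFD mice. The control groups did not overlap between diets, and the 4 control HFD mice were lower than every other mouse but P357. In controls the diet difference of Egr3 was -2.41 ± 0.55 (unadjusted p 0.000482) and did not pass the adjustment (adjusted p 0.576, range over the alternatives 0.159 to 0.881).

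Other immediate early genes, such as the growth regulator Myc and the synaptic gene Arc, made a list of 19, of which 17 were tested (not Ier5l or Ptgs2). On SD limma called 0, with 7 at an unadjusted p under 0.05 and a median of 0.17 (Gadd45g 1.43, Arc -1.10), which turned to -0.021 without P356. On HFD it called 0, with 2 at an unadjusted p under 0.05 and a median of 0.24 (Ccn1 1.22, Npas4 -0.54). Over both diets 2 were called higher in mutants and 1 lower, beside 6.54% of all tested genes, 4.48% higher. Ccn1, which encodes a secreted matrix protein, was higher by 1.05 ± 0.26 (adjusted p 0.0287), and Plk3, which encodes a polo-like kinase, by 0.89 ± 0.22 (adjusted p 0.0272). Npas4, an activity-induced transcription factor best known in neurons, was 7.39, 6.93, 6.88 and 6.29 in control SD mice, 5.54, 3.06, 3.01 and 2.99 in mutant SD mice, 4.36, 6.40, 2.26 and 2.33 in control HFD mice, and 2.67, 2.71, 2.14 and 1.68 in mutant HFD mice. Each control SD mouse lay above every mutant, on either diet. Over both diets the fold change of Npas4 was -0.70 ± 0.19 (adjusted p 0.0404).

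Feedback inhibitors, the phosphatases, RNA decay factors and corepressors induced by the same signals, numbered 18, of which 17 were tested (not Dusp4). On SD limma called 0, with 5 at an unadjusted p under 0.05 and a median of 0.07 (Dusp5 0.81, Dusp2 -1.06). On HFD it called 0, with 4 at an unadjusted p under 0.05 and a median of 0.28 (Dusp5 1.14, Dusp2 -0.42). Over both diets Dusp5, a nuclear phosphatase of ERK kinases, was higher by 0.98 ± 0.25 (adjusted p 0.0334), and Sik1, a kinase that restrains CREB coactivators, by 0.65 ± 0.18 (adjusted p 0.0402). Zfp36l2, an RNA decay factor, was lower, with a fold change of -0.58 ± 0.17 (adjusted p 0.0490, range over the alternatives 0.0359 to 0.0583). Of the 20 upstream factors and kinases, such as Creb1 and Srf, limma called 0 on SD, with 9 at an unadjusted p under 0.05 and a median of -0.10 (Rps6ka1 0.57, Elk4 -0.56). On HFD it called 0, with 2 at an unadjusted p under 0.05 and a median of 0.088 (Rps6ka1 0.40, Elk4 -0.28). Rps6ka1, which encodes the kinase RSK1, was higher over both diets by 0.49 ± 0.12 (adjusted p 0.0246). With single mice left out, Ccn1, Plk3, Npas4, Dusp5, Sik1, Zfp36l2 and Rps6ka1 were called in 6, 8, 4, 6, 4, 4 and 12 of 16 fits, with adjusted p-values of at most 0.109. Leaving out P357 and P392, limma called 6.70% of all tested genes on SD, 7.42% on HFD and 18.6% over both diets. It called 3 of the other immediate early genes on SD and 2 on HFD (Ccn1 1.69, adjusted p 0.000335). In the same fit it called 0 and 3 of the feedback inhibitors (Dusp5 1.46 on HFD, adjusted p 0.0109), 1 and 1 of the upstream factors and kinases (Rps6ka1 0.65 on SD, adjusted p 0.0414), and 0 and 0 of the EGR and KLF factors. The SD median of the feedback inhibitors was then 0.26, and that of the upstream factors and kinases 0.0031. Some falls on SD were smaller in this fit, -0.51 for Egr3, -0.58 for Arc and -0.60 for Dusp2.

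Receptors for hypothalamic hormones numbered 10, of which 8 were tested (not Vipr2 or Sstr2). Limma called 0 on SD, with 3 at an unadjusted p under 0.05 and a median of -0.30 (Trhr 0.073, Drd2 -1.06), and 0 on HFD, with 2 at an unadjusted p under 0.05 and a median of -0.029 (Adcyap1r1 0.62, Crhr1 -0.39). Among the 6 pituitary genes with described NR4A, EGR1 or AP-1 sites (Pomc, Lhb, Fshb, Gnrhr, Cga and Prl), limma called 0 on SD, with 0 at an unadjusted p under 0.05 and a median of -0.065 (Cga 0.42, Pomc -0.81). On HFD it called 0 of these, with 1 at an unadjusted p under 0.05 and a median of 0.038 (Fshb 0.87, Lhb -1.18). The 12 heat shock genes, which encode chaperones, had 0 called on SD, with 1 at an unadjusted p under 0.05 and a median of 0.021 (Hspa8 0.33, Hsph1 -0.28). Their HFD count was also 0, with 4 at an unadjusted p under 0.05 and a median of 0.15 (Hspa1a 0.63, Hspe1 -0.055). Of the 8 glucocorticoid-induced genes limma called 0 on SD, with 0 at an unadjusted p under 0.05 and a median of -0.038 (Sgk1 0.88, Ddit4 -0.44). It called 0 of them on HFD, with 1 at an unadjusted p under 0.05 and a median of -0.068 (Cdkn1a 0.56, Zbtb16 -0.90). These 4 lists had 0 calls over both diets too, with 3, 1, 2 and 2 genes at an unadjusted p under 0.05. The SD value of Pomc, which was 1654 in P357, was -0.054 without P357 and P392 (adjusted p 0.942). That of Drd2 was then smaller, -0.65, and was called (adjusted p 0.0162). In the same fit Sgk1 on SD (1.21, adjusted p 0.0103) and Adcyap1r1 (0.91, adjusted p 0.0224), Lhb (-1.49, adjusted p 0.00240) and Cdkn1a (0.69, adjusted p 0.0453) on HFD were called as well. In that fit the 4 lists had 2, 1, 0 and 1 calls on SD, 1, 1, 1 and 2 on HFD and 2, 1, 2 and 2 over both diets (6.70%, 7.42% and 18.6% of all tested genes), with SD medians of -0.23, 0.026, 0.049 and 0.27. Leaving out a single mouse could turn the sign of the median on SD for all of these lists but the receptors, and on HFD for all but the heat shock genes.

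Markers of the hormone cells were examined beside the 10 genes. On SD the median fold changes were -0.40 for 2 lactotroph, -0.40 for 3 somatotroph, -0.51 for 4 corticotroph, -1.05 for 3 melanotroph, -0.078 for 4 gonadotroph and 0.21 for 3 thyrotroph markers. The 2 lactotroph markers went opposite ways, Prl at 0.25 and Drd2 at -1.06, so their median describes neither. Limma called 0 of them on SD, with 1, 2, 1, 0, 0 and 1 at an unadjusted p under 0.05 (19.9% of all tested genes). On HFD the medians were 0.018, -0.29, -0.18, 0.61, -0.081 and 0.26 in the same order, with 0 called and 0, 0, 1, 0, 1 and 1 at an unadjusted p under 0.05 (10.2% of all tested genes). With a mean of at least 5, which left 2 corticotroph and 2 thyrotroph markers, the corticotroph median on HFD turned to 0.19, and the thyrotroph medians were 0.72 on SD and 0.74 on HFD. The covariate also turned the corticotroph (0.080) and gonadotroph (0.076) medians on HFD. The medians in that order without P357 and P392 were -0.27, -0.38, -0.23, -0.25, -0.19 and 0.081 on SD and -0.068, -0.32, -0.35, 0.033, -0.055 and 0.20 on HFD, so that most of the melanotroph value rested on P357 on SD and on P392 on HFD. Limma then called 0, 0, 0, 0, 1 and 1 markers higher and 1, 0, 0, 0, 0 and 0 lower on SD, beside 6.70% of all tested genes. On HFD it called 1 thyrotroph marker higher and 1 gonadotroph marker lower in that fit, beside 7.42% of all. Over both diets 1 was called with all mice, the thyrotroph marker Dio2, which encodes a deiodinase and is also made by other cells (1.34 ± 0.27, adjusted p 0.0100). Of the 4 posterior lobe markers, Col25a1 was called on SD (1.00 ± 0.22, adjusted p 0.0321) and over both diets (0.89 ± 0.15, adjusted p 0.00471), beside 1.84% and 6.54% of all tested genes. The SD call ended with 6 of the 16 single mice left out and with the covariate (adjusted p 0.0545). On SD the other 3 (Rax, Nkx2-1 and Scn7a) had values below 0. The list median was -0.66 on SD and 0.57 on HFD, and -0.29 and 0.038 without P357 and P392. With a mean of at least 5 only Col25a1 was left, and the SD value was 1.00. Unlike the other 3, Col25a1 was not low in P357 (13.9) or P392 (15.3), above all control SD mice. Whether its values follow the level of that lobe was not tested. Of 4 stem and folliculostellate markers 3 were tested (not S100b), with medians of 0.27 and 0.046, and 0 called with 0 at an unadjusted p under 0.05 on either diet. The 5 red blood cell markers summed to 581 to 3252 in control SD mice and 2254 to 4662 in mutant SD mice. On HFD they summed to 773.9 to 1782 in control mice and 1291 to 2406 in mutant mice. Their medians were 1.32 on SD and 0.71 on HFD. Limma called 0 of them, with 4 and 1 at an unadjusted p under 0.05 (19.9% and 10.2% of all tested genes). The part of these cell types in the values of the 10 genes was not tested.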

How the data were processed

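Pituitary RNA of 16 mice, 1 library per mouse, was prepared with the NEBNext Ultra II kit and sequenced on a NovaSeq. The deposited unit is a signal, expression that the authors normalized with Kallisto in gene mode (mm10) and Sleuth, whose versions are not given in the sources used here and which their source data label FKPRM. Identifiers were matched to symbols for 17351 of 17362 genes. A gene was tested where its 16 values averaged at least 1. Limma 3.58.1 (R 4.3.3) was fitted to log2(value + 0.5) with a mean for each of the 4 groups, eBayes used a trend, and p-values were adjusted by Benjamini and Hochberg within each of 7 comparisons (threshold 0.05). The limma step was tested on simulated data. Exact permutation tests, correlations, motif searches and figures were run in Python 3.11.15 (scipy 1.17.1, pandas 2.3.3, numpy 2.4.6, matplotlib 3.10.9). Shared sequence was searched with BLAST 2.17.0.

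Named genes were the 10 members, Esr1, every gene of the other lists that was called and otherwise the largest rise and the largest fall of a list in a comparison, and the 5 genes outside the members most correlated with Nr4a1, with Fos and with the mean z-score of the members. Npas4, Egr3 and Dusp1 fall under this rule, and showing their value in every mouse was chosen after their values were seen. The members and lists were chosen with earlier results of these data known. Alternatives were no filter, a mean of at least 5, pseudocounts of 0.1 and 1, scaling to the same median, no trend, a fit of the compared mice alone, a covariate for the animal-number range, leaving out each mouse in turn and, chosen after seeing the data, leaving out P357 and P392. No mouse was left out of the values reported otherwise.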

Additional observations from a re-analysis of the deposited data

Results flagged for a closer look

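In 84 groups of 4 mice, from 21 genes, 10 groups held a mouse that stood apart in untransformed values (Dixon's ratio). Chance gives about 1 in 20 groups if values are normally distributed and groups independent, which these groups, with the same mice in each gene, are not. Among the 10 immediate early genes this was so in 4 of 40 groups, 3 of them through P384. On the log2 scale 4 of the 10 groups, those of Jun, Esr1, Npas4 and Dusp5, still held a mouse apart. In mutant SD mice, P384 was far above the others for Fos (187 against 7.69 to 19.1), Jun (41.1 against 20.5 to 22.6) and Egr1 (101 against 6.74 to 21.1). In control HFD mice, P390 was far above for Nr4a3 (7.08 against 1.64 to 2.48). Esr1 in P357 was 10.02, below the 20.5 to 22.2 of the other mutant SD mice. Batf in P356 was 2.46, above the 0.0923 to 0.379 of the other control SD mice, and Sik1 in the same mouse was 16.6, above 10.2 to 11.3. Plk3 in P392 was 5.70, above the 1.51 to 1.96 of the other control HFD mice. Npas4 in P357 was 5.54, above the 2.99 to 3.06 of the other mutant SD mice. Dusp5 in P388 was 3.32, below the 5.29 to 5.62 of the other mutant HFD mice.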

How the results depend on the processing

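Apart from leaving out single mice, alternatives gave 68 counts within 1.5 times the reported ones and 18 outside, and 541 fold changes with the same direction and side of the threshold, while 8 reversed, 19 lost the threshold and 14 gained it. Of the medians of gene lists between genotypes, 11 moved by more than the median SE of their genes. Signs turned for 14 medians in 1 or more of these alternatives, such as the 10 genes on SD with the covariate (-0.25), posterior lobe markers on SD (1.00) and EGR and KLF factors (-0.0016) and corticotroph markers (0.19) on HFD with a mean of at least 5. The heat shock genes turned on SD with that filter (-0.0023) and with the covariate (-0.064), and the hypothalamic hormone receptors on HFD with no filter (0.085) and with the covariate (0.18). With single mice left out, the sign turned for 13 medians. For the results that changed, the cause was not tested. Between genotypes on SD, 151 genes were called with a mean of at least 5 and 961 without P357 and P392, an alternative chosen after seeing the data. Of the 10 immediate early genes, 0 were called on SD with no filter, a mean of at least 5, no trend or the animal-number range as a covariate, and 2 without P357 and P392. On HFD 1 gene was called with no filter, 1 without trend and 1064 without P357 and P392. For diet, 1 gene was called in controls without P357 and P392, 2 in mutants with only the mice compared, and over both genotypes 0 with median scaling, 0 without trend and 2 with the covariate. Over both diets 610 genes were called between genotypes with a mean of at least 5, and without P357 and P392 2668 genes and 3 of the 10.

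Jun on SD was 1.14 with no filter, a mean of at least 5 or no trend, and 0.93 with the covariate, none of them called. Without P357 and P392 the SD sign turned for Nr4a1 (0.29), Fos (0.31) and Egr1 (0.063). With the covariate it turned for Nr4a2 (-0.14), Nr4a3 (-0.0032), Fosb (-0.35) and Junb (-0.42). With median scaling Junb on HFD was -0.015. Batf, Nr4a3 and other genes with a mean under 5 have no value with that filter.

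With each of the 16 mice left out in turn, genes called ran from 33 to 826 between genotypes on SD, 0 to 653 on HFD, 441 to 1931 over both diets, 0 to 6 for diet in controls, 0 to 1 in mutants, 0 to 6 over both genotypes and 0 to 1 for the interaction. Of the 10 genes, 0 to 1 were called on SD and 0 to 2 over both diets, and Jun on SD ran from 0.90 to 1.23. Signs on SD turned for Nr4a1 (-0.67 to 0.29), Nr4a2 (-0.53 to 0.48), Nr4a3 (-0.19 to 0.35), Fos (-1.19 to 0.37), Fosb (-0.077 to 1.25), Junb (-0.39 to 0.37) and Egr1 (-1.21 to 0.063). On HFD they turned for Jun (-0.089 to 0.30), Junb (-0.24 to 0.26) and Ier2 (-0.083 to 0.37), and for Fosb between diets in mutants (-1.22 to 0.11). No paired analysis was possible because the labels give no replicate numbers shared between groups. Depth is known only through the estimated reads of genes with 1 transcript, and covers counting error alone.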
